A study of Nannospalax ehrenbergi and Mus musculus with 25 samples.

Results

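The genes described here encode the Z-disc, titin and M-band of the muscle sarcomere, namely Ttn, Tcap, Neb, Actn2, Actn3, Ldb3, Myoz1, Myom1 and Myom2. They were chosen by name and not by a threshold on measured values, with earlier results of these data known. All 9 were found among the 27988 genes of the Spalax table and among the 47593 genes of the mouse table. Their normalised read counts (reads per gene, scaled by the authors with a size factor for each library) were followed through 25 RNA-Seq libraries of neck muscle and tumor, 16 from the blind mole rat Spalax and 9 from the mouse.

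Treated animals had received 1 subcutaneous injection of 3-methylcholanthrene (3MCA), a carcinogen that damages DNA and induces sarcomas, in the left side of the neck. Spalax were caught in the field, with ages that could only be estimated, from about 2 years to over 10 years. The mice were C57BL/6 animals of 3 to 4 months. Spalax gave 4 untreated controls (animals 1042, 1075, 2095 and 6038) and 4 injected animals without a tumor, called tolerant, taken at 18 months (2251 and 2261) or 30 months (2218 and 2375). Tumor from the injected side (IS) and muscle from the other, uninjected side (UIS) were both sampled in 2 Spalax with a benign granuloma at 14 months (600) and 16 months (976) and in 2 with a fibrosarcoma at 18 months (2240) and 30 months (2230). Mouse gave 3 untreated controls (M1, M2 and M5) and the IS and UIS of 3 animals with a fibrosarcoma at 14 weeks (1019), 12 weeks (1023) and 11 weeks (512). Control libraries came from the uninjected side and tolerant libraries, by the animal list of the study, from the injected side. The study's text also speaks of tumor-negative UIS, and the tolerant titles end in H like those of Spalax UIS and controls. All 4 Spalax controls were females against 1 of 4 tolerant and 3 of 4 tumor-bearing animals, and all mice were males. By the labels the libraries of tumor-bearing animals carry single indices and all others dual indices. By the study's methods, Spalax controls were biopsied under anesthesia and recovered, whereas tumor-bearing animals and control mice were sampled at a lethal isoflurane dose. Side, sex, index type and way of sampling therefore cannot be told apart from the group in the comparisons that cross them.

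The sarcomere is the contractile unit of striated muscle and is bounded by Z-discs, in which thin actin filaments of neighbouring sarcomeres are anchored, with the M-band in its middle, where the thick myosin filaments are cross-linked. Titin, the giant protein made from Ttn, reaches from Z-disc to M-band and acts as a molecular spring, and its end in the Z-disc is capped by telethonin, the product of Tcap. Nebulin (Neb) runs along the thin filament, alpha-actinins (Actn2, in all fibers, and Actn3, in fast fibers) cross-link actin in the Z-disc, Ldb3 (also called ZASP or Cypher) and Myoz1 (calsarcin 2) are Z-disc adaptors, and myomesin 1 (Myom1) and myomesin 2 or M-protein (Myom2) bridge thick filaments in the M-band.

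In the mouse annotation GENCODE vM21 (GRCm38), all 9 are protein-coding genes. Ttn lies on chromosome 2 from 76703980 to 76982547 on the minus strand and has 117 kb of exons in 345 exon blocks. Neb lies on the same chromosome and strand from 52136647 to 52378474, with 26.6 kb of exons in 166 blocks. Tcap, on chromosome 11 from 98383811 to 98384953 on the plus strand, is the shortest, with 0.948 kb of exons in 2 blocks. Actn2 (chromosome 13, 12269426 to 12340760, minus strand), Actn3 (chromosome 19, 4861216 to 4877909, minus strand), Ldb3 (chromosome 14, 34526603 to 34588682, minus strand), Myoz1 (chromosome 14, 20649107 to 20656540, minus strand), Myom1 (chromosome 17, 71002633 to 71126856, plus strand) and Myom2 (chromosome 8, 15057653 to 15133541, plus strand) have exon lengths between 1.89 and 10.459 kb. No exon base of a member lay under another gene of the same strand, and at most 1.98% (Myom1, under Myl12a) lay under a gene of the opposite strand. The strand setting of the read counting is not given in the sources used here.

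The libraries held 17025447 to 23386729 reads in Spalax and 22143060 to 31179183 in mouse, and the lowest normalised value of a member in a muscle library was 5353. Other muscle fiber genes checked the tissue label: Acta1, Ckm, Mb, Myl1 and Pvalb, all 5 of them present, summed to between 446175 and 2350557 in the 12 Spalax muscle libraries and between 581898 and 1492897 in the 6 of mouse. In the tumors they summed to between 82.2 and 2353 in Spalax and between 25.3 and 41014 in mouse. The Spalax UIS library 976 had the lowest sum of the muscle libraries, and its sequencing name in the labels carries another animal number than its title.

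The 9 members together took 2.14 to 3.60% of the reads of Spalax controls, 2.88 to 4.67% in tolerant muscle and 4.71 to 5.28% in UIS. In mouse they took 1.43 to 2.33% in controls and 2.30 to 4.51% in UIS. In the tumors the share was 0.00144 to 0.0190% in Spalax and 0.00220 to 0.332% in mouse. The plot of values by library shows that every member was lower in every tumor library than in every muscle library of the same species.

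**Figure D1:**
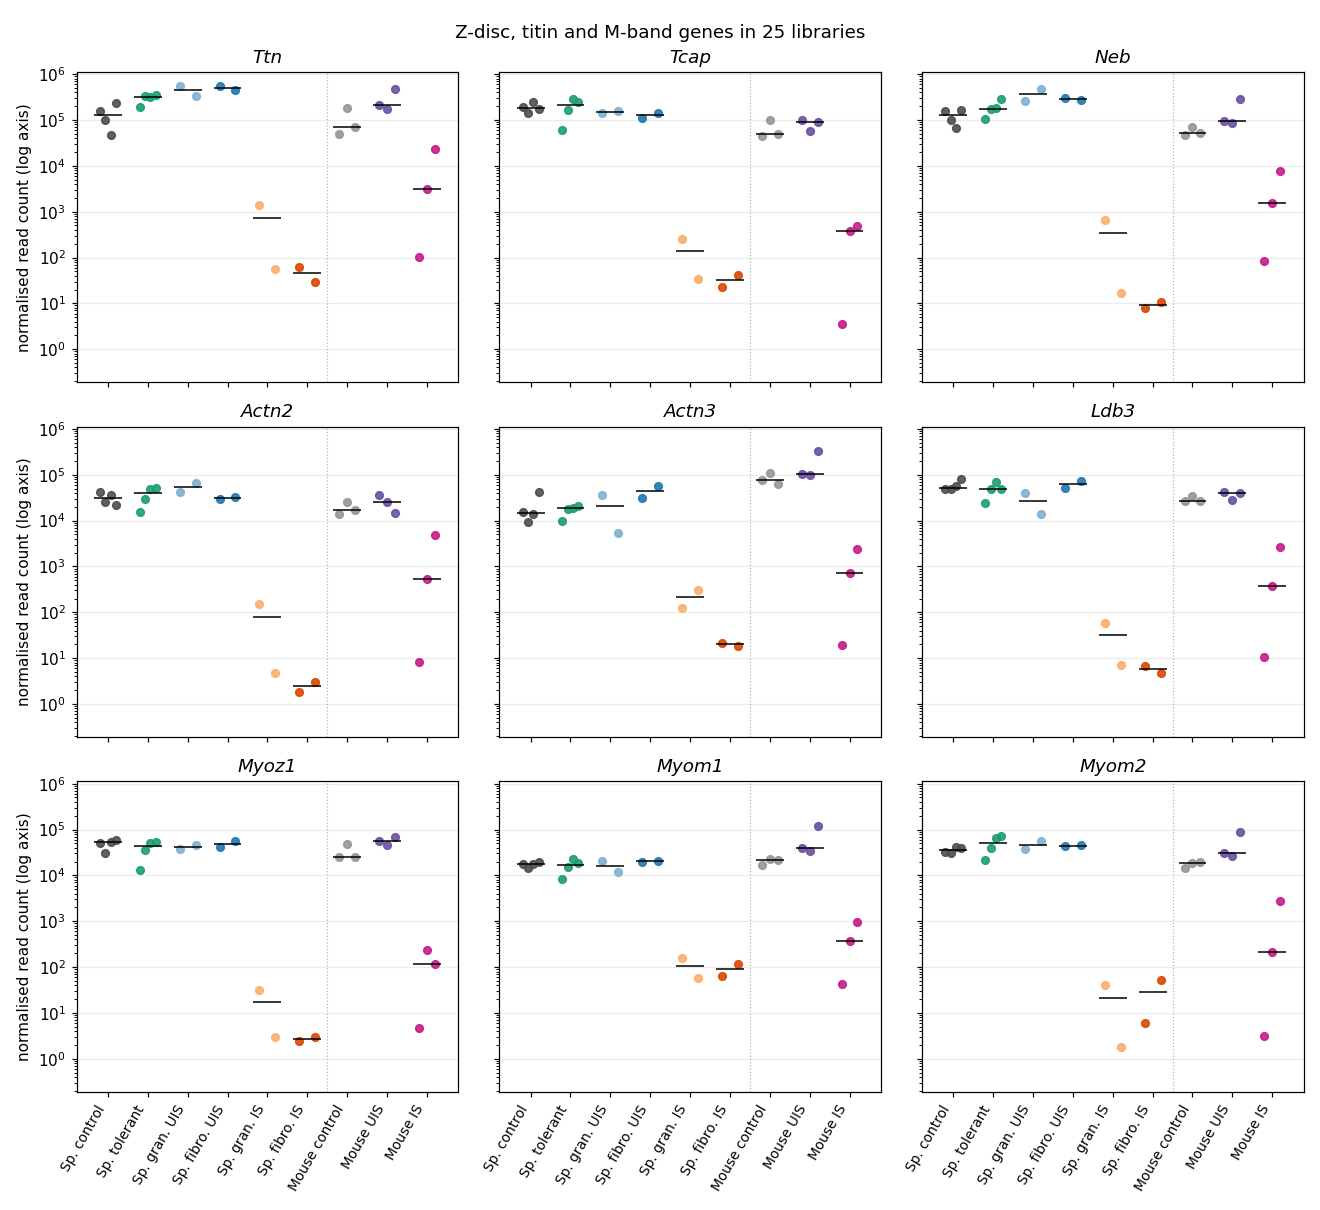
Normalised read count (log axis) of the 9 genes in the 25 libraries. Points are libraries, black lines are group medians, Sp. is Spalax, gran. granuloma and fibro. fibrosarcoma; the tumor (IS) libraries sit far below the muscle libraries, and the 3 mouse tumors spread more than the 4 of Spalax.

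Levels of different genes were compared per length only in mouse, as RPKM, reads scaled to exon length and library size. In control muscle Tcap was highest with 2854 ± 1007 RPKM (SD, n = 3), followed by Actn3 with 1193 ± 227 and Myoz1 with 736 ± 215, which overlapped in range. Actn2 (207 ± 43.7) and Ldb3 (205 ± 9.21) did not differ beyond their spread. Neb (90.9 ± 10.9), Myom2 (85.2 ± 14.4) and Myom1 (84.0 ± 11.1) were likewise within 1 SD of each other. Ttn was lowest per length with 35.3 ± 21.0 RPKM. Tcap, Actn3 and Myoz1 thus had far more reads per length than Neb and Ttn, which make the giant proteins.

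Tumors were compared with uninjected tissue of the same animals. All 9 members were lower in IS than in UIS in granuloma, in Spalax fibrosarcoma and in mouse fibrosarcoma (limma on log2(value + 1), Benjamini-Hochberg adjusted p of at most 0.05), and the libraries of IS and UIS did not overlap for any of them. The background of genes called lower was 12.6% in granuloma, 19.0% in Spalax fibrosarcoma and 22.3% in mouse, and that of genes lower in IS without overlap was 34.8%, 36.4% and 29.2%. The median log2 fold change of the members was -10.63, -13.16 and -7.76, beside -0.01, 0.03 and 0.11 over all genes tested. In bulk tissue, fewer muscle fibers and less RNA per fiber cannot be told apart. Leaving out any 1 of the 4 granuloma libraries, or either UIS library of Spalax fibrosarcoma (2240 or 2230), brought the count of called members, and of all genes, to 0, while the members' log2 fold changes stayed between -14.26 and -4.78 in granuloma and between -14.96 and -7.45 in fibrosarcoma.

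Titin RNA fell in all 3 comparisons. Ttn stood at 551825 in UIS of Spalax 600 and 341988 in 976, and at 1365 and 56.8 in their granulomas. In the fibrosarcoma animals 2240 and 2230 it stood at 541159 and 442598 in UIS and at 62.1 and 28.8 in IS. The log2 fold change was -10.59 ± 1.46 (SE, limma with adjusted p = 0.0115) in granuloma and -13.46 ± 0.43 (adjusted p = 0.000652) in fibrosarcoma. In mouse the UIS values of 1019, 1023 and 512 were 217015, 177369 and 472863, and the tumors held 105, 3110 and 23372, a log2 fold change of -7.06 ± 1.83 (SE, limma with adjusted p = 0.0214). The 4 Spalax tumors thus kept at most 0.247% of the UIS level, and mouse tumor 512 kept 4.94%.

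Tcap, the cap of titin, went from 140680 and 157347 in granuloma UIS to 248 and 34.4 in IS, and from 111164 and 141507 in fibrosarcoma UIS to 23.4 and 40.8. Its log2 fold change was -10.63 ± 0.92 and -11.94 ± 0.35 (SE, limma with adjusted p = 0.00577 and 0.000652). Mouse Tcap went from 100156, 56960 and 91242 in UIS to 3.62, 375 and 491 in IS, for a log2 fold change of -9.73 ± 1.72 (SE, limma with adjusted p = 0.00658). Tumor 512, which kept 4.94% of titin RNA, kept 0.538% of Tcap.

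Nebulin had the largest fall of the members in Spalax fibrosarcoma. Neb stood at 303212 (2240) and 269738 (2230) in UIS and at 7.99 and 10.8 in IS, a log2 fold change of -14.76 ± 0.25 (SE, limma with adjusted p = 0.000351). In granuloma it went from 259461 and 475802 to 666 and 16.9, a log2 fold change of -11.65 ± 1.65 (SE, limma with adjusted p = 0.0121). In mouse it went from 96562, 85126 and 284312 to 82.2, 1564 and 7843 (log2 fold change -7.04 ± 1.58, SE, limma with adjusted p = 0.0134). The 2 granulomas differed in what was left, with 0.257% of the UIS level in 600 and 0.00356% in 976.

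The alpha-actinins parted from each other in single tumors. Actn2 went from 41441 and 66090 in granuloma UIS to 150 and 4.83 in IS, and from 29667 and 32067 in fibrosarcoma UIS to 1.84 and 3.00. The value in fibrosarcoma 2240 rests on 3 reads (exact Poisson 95% interval 0.619 to 8.77 reads, counting error only), which is 0.00622% of UIS with an interval of 0.00128 to 0.0182%. Log2 fold changes of Actn2 were -10.78 ± 1.48 and -13.16 ± 0.32 (SE, limma with adjusted p = 0.0114 and 0.000481).

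Actn3, the fast-fiber alpha-actinin, went from 35945 and 5353 in granuloma UIS to 121 and 309 in IS, and from 30890 and 56222 in fibrosarcoma UIS to 21.5 and 18.6. Granuloma 976 therefore had the lowest Actn3 of the 4 UIS libraries and the highest of the 4 tumors, and kept 5.77% of its UIS level while no other member there was above 0.479%. Its log2 fold changes were -6.16 ± 0.98 and -10.95 ± 0.36 (SE, limma with adjusted p = 0.0155 and 0.000677).

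In mouse animal 512 it was Actn2 that kept the larger share. Actn2 stood at 36026, 25183 and 14830 in UIS of 1019, 1023 and 512 and at 8.27, 543 and 4870 in IS, so that tumor 512 kept 32.8% of the UIS level of its animal and 1019 kept 0.0230%. The log2 fold change of Actn2 was -6.35 ± 2.09 (SE, limma with adjusted p = 0.0465), the call nearest to the threshold among the members. With the animal as a replicate block its adjusted p was 0.0527, and 8 of 9 members were then called. The call of Actn2 was lost in 9 of the 13 alternatives run in mouse, those of Ttn and Myom2 in 4 each, and that of no other member. Mouse Actn3 went from 104704, 97001 and 331375 to 19.1, 729 and 2395, a log2 fold change of -8.84 ± 1.69 (SE, limma with adjusted p = 0.00830).

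The Z-disc adaptors Myoz1 and Ldb3 were called lower in all 3 comparisons. Myoz1 was at 38356 and 46578 in granuloma UIS and at 31.9 and 3.02 in IS, and at 41276 and 57162 in fibrosarcoma UIS against 2.46 and 3.00 in IS. In mouse it went from 55754, 46165 and 68409 to 4.65, 235 and 114. Its log2 fold change was -11.84 ± 0.99, -13.67 ± 0.30 and -10.03 ± 1.31 in the 3 comparisons (SE, limma with adjusted p = 0.00557, 0.000481 and 0.00290). Of the 9 members Myoz1 alone was lower in mouse tumor 512 than in tumor 1023. Ldb3 had log2 fold changes of -10.09 ± 1.03, -13.18 ± 0.32 and -7.34 ± 1.79 (SE, limma with adjusted p = 0.00701, 0.000481 and 0.0177), and its lowest and highest tumor values were 4.80 and 57.3 in Spalax, and 10.9 and 2601 in mouse.

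The M-band genes differed from each other in what remained. Myom1 stood at 20636 and 11973 in granuloma UIS and at 157 and 57.4 in IS, and at 20031 and 20698 in fibrosarcoma UIS against 62.7 and 115 in IS. Its share of the UIS level, 0.313 to 0.760% in the 4 Spalax tumors, was the highest of the 9 members in 600, 2240 and 2230 and in 976 only Actn3 kept more. Myom2 went from 36733 and 54883 to 41.4 and 1.81 in granuloma, the latter resting on 3 reads (0.00330% of UIS, exact Poisson interval 0.000681 to 0.00965%), and from 42997 and 45298 to 6.15 and 51 in fibrosarcoma.

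Log2 fold changes of Myom1 were -7.36 ± 0.59, -7.89 ± 0.36 and -7.76 ± 1.14 (SE, limma with adjusted p = 0.00541, 0.00125 and 0.00381) in granuloma, Spalax fibrosarcoma and mouse. Those of Myom2 were -12.01 ± 1.25, -11.16 ± 0.98 and -8.29 ± 2.18 (SE, limma with adjusted p = 0.00733, 0.00451 and 0.0225). In mouse Myom1 held 43.4, 375 and 960 and Myom2 3.10, 215 and 2733 in the tumors of 1019, 1023 and 512. Myomesin 1 RNA thus fell by a similar size in all 3 comparisons, whereas the fall of M-protein RNA was numerically larger in Spalax.

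**Figure D2:**
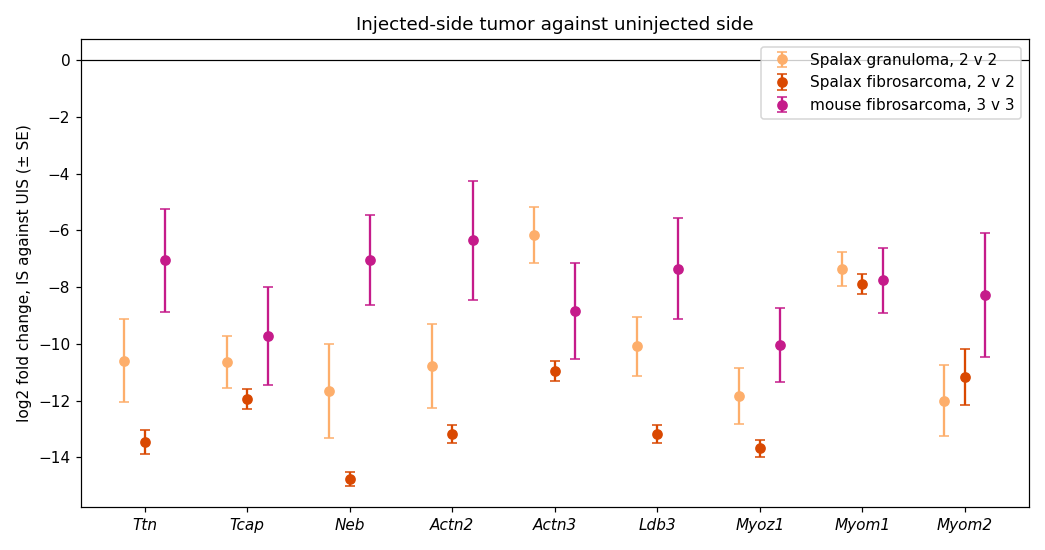
Log2 fold change of IS against UIS (points) with SE (bars) for the 9 genes in granuloma and fibrosarcoma of Spalax (2 against 2 libraries) and fibrosarcoma of mouse (3 against 3). All points are below 0; the SE is smallest in Spalax fibrosarcoma and Myom1 lies between -7.36 and -7.89 in all 3.

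Read animal by animal, the tumors ranked in how much member RNA they held. Spalax granuloma 600 kept 0.0833 to 0.760% of the UIS level. Granuloma 976 kept 0.00330 to 0.0512% for every member but Myom1 (0.479%) and Actn3 (5.77%), and fibrosarcomas 2240 and 2230 kept at most 0.0697% and 0.113% for every member but Myom1. Mouse tumor 1019 kept 0.00361 to 0.110%, 1023 kept 0.510 to 2.16% and 512 kept 0.167 to 32.8%. In tumor 512 the spread between members was thus the widest of the mouse tumors.

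**Figure D3:**
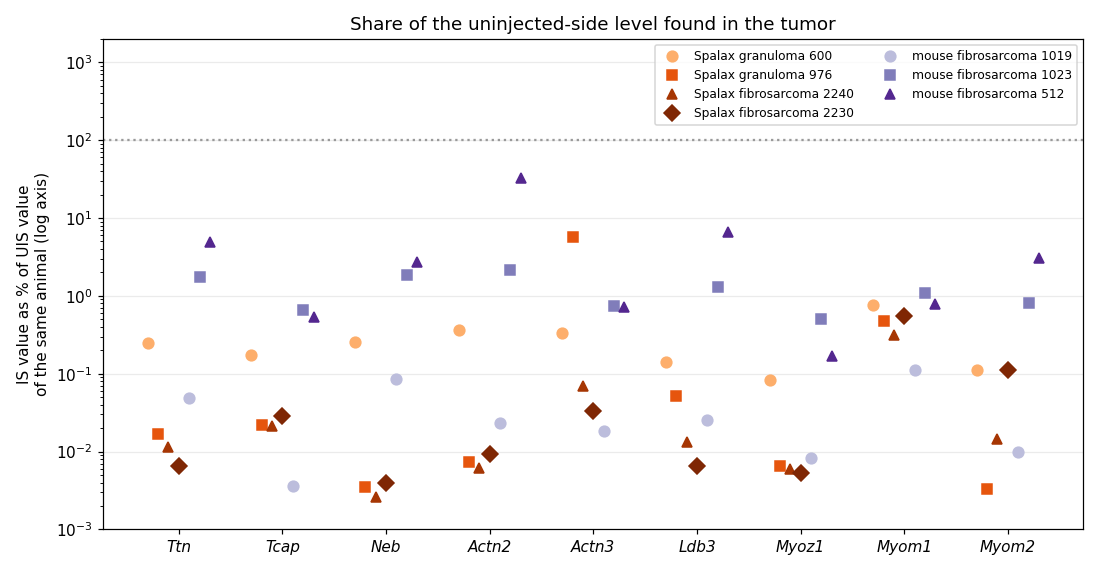
Value in the tumor as a percentage of the UIS value of the same animal (log axis) for each gene; the dotted line is 100%. Points are 4 Spalax and 3 mouse animals, with Actn2 in mouse 512 (32.8%) and Actn3 in Spalax 976 (5.77%) standing above the other members of their tumors.

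Mouse tumor 512 also differed in other muscle genes, which were picked after their values were seen. Tnnt2, the cardiac and embryonic troponin T, stood at 9103 there against 3.62 and 24.3 in tumors 1019 and 1023 and 79.2 to 164 in UIS, while Myh6, the cardiac myosin chain, was at 9.47. Trim55 (1280) and Synpo2l (2886), partners of titin and of the Z-disc, lay within the UIS ranges of 1078 to 1658.5 and 1444 to 4831. The smooth muscle actin Acta2 was at 18510 against 2353 and 2640 in the other tumors, and Cnn1 at 258 against 30.0 and 64.7. The smooth muscle genes Myh11 (69.5 against 84.2 and 54.6) and Smtn (846 against 692 and 1148) lay between the other tumors. So did the cardiac troponin gene Tnni3 (35.8 against 95.6 and 32.0). The summed fibroblast markers, in which collagens weigh most, were 139354 in 512 and 157445 and 173019 in the others. Of these markers Col1a1 was higher in 512 (39336 against 28179 and 15538). Dcn (833 against 12647 and 15028), Lum (198 against 3316 and 11282) and Pdgfra (957 against 10245 and 15553) were lower there. Whether other muscle cells had a part in the member values of 512 was not tested. Without tumor 512 all 9 members were still called lower, beside 20.1% of genes. Without tumor 1023, UIS 1023 or UIS 512 the count was 6, as Actn2, Myom2 and Ttn were not called, beside 15.0%, 15.3% and 22.6% of genes.

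The tumors carried markers of other cells where the members were low. The 6 fibroblast markers, all present, summed to 114152 to 1889378 in Spalax tumors against 13293 to 43160 in UIS, and to 139354 to 173019 against 4063 to 29282 in mouse. In the tumors these sums came mainly from Col1a1, Col1a2 and Col3a1. Dcn and Lum were lower in fibrosarcoma 2240 (3483 and 1302) than in its UIS (19046 and 5189). Dcn was also lower in mouse tumor 512 (833) than in its UIS (3048). Otherwise both genes were higher in each tumor than in UIS of the same animal. The macrophage and leukocyte markers (5 of 6 in Spalax, 6 of 6 in mouse) summed to 7781 to 26066 in Spalax tumors against 1060 to 3454 in UIS, and to 6428 to 32673 in mouse tumors against 324 to 4445. The 6 fat cell markers were low where the members were, at 57.2 to 526 in Spalax tumors against 3440 to 28265 in UIS and at 248 to 815 against 7057 to 77952 in mouse, as were the 3 nerve markers in mouse (8.27 to 36.3 against 552 to 1061). The part of these lists in the fall of the members was not tested.

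The 2 tumor types of Spalax were then compared. Between fibrosarcoma and granuloma IS, 6 members passed the filter on low values (10 in at least 2 libraries), and 0 were called by limma, with a background of 0% (591 genes had an unadjusted p under 0.05, edgeR called 0 genes and DESeq2 153). Actn3 (21.5 and 18.6 against 121 and 309) and Neb (7.99 and 10.8 against 666 and 16.9) did not overlap between the types, as 31.4% of all genes did not, with log2 differences of -3.21 ± 0.69 and -3.41 ± 1.81 (SE, limma with adjusted p = 1.00 for both, unadjusted p = 0.00634 and 0.122). DESeq2 on whole reads called these 2 members lower in fibrosarcoma (adjusted p = 0.00149 and 0.0186), where 0.783% of genes were called lower. In UIS 0 members were called by limma (background 0%, with 572 genes at an unadjusted p under 0.05, 0 genes called by edgeR and 129 by DESeq2), and Actn2 and Ldb3 did not overlap, beside 37.7% of all genes, with log2 differences of fibrosarcoma against granuloma UIS of -0.76 ± 0.43 and 1.38 ± 0.63 (SE, limma with adjusted p = 0.822 for both). Without granuloma UIS 600, so against UIS 976 alone, limma called 2 of 9 members, Actn3 and Ldb3, beside 23.8% of all genes.

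The responses themselves, IS against UIS, were compared by interaction terms. Between fibrosarcoma and granuloma 0 members were called by limma, against a background of 0% (766 genes had an unadjusted p under 0.05, edgeR called 0 genes and DESeq2 88), and 8 of 9 had a larger fall in fibrosarcoma by value, with Actn3 (-4.80 ± 1.23, SE) and Ldb3 (-3.09 ± 1.26) at an unadjusted p of 0.00533 and 0.0430 (limma, adjusted p = 0.946 for both). DESeq2 called Actn3 (adjusted p = 0.0469), where 0.501% of genes had a called negative term.

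Between Spalax fibrosarcoma and mouse 0 members were called by limma, against a background of 3.95%. By value all 9 members fell further in Spalax, led by Neb (log2 difference -7.72 ± 2.14, SE, limma with adjusted p = 0.0828), Actn2 (-6.80 ± 2.85, adjusted p = 0.210), Ttn (-6.41 ± 2.50, adjusted p = 0.181) and Ldb3 (-5.83 ± 2.44, adjusted p = 0.209). Myom1 differed least (-0.12 ± 1.56, SE, limma with adjusted p = 0.978). DESeq2 called 4 members, Actn2, Ldb3, Myoz1 and Ttn, beside 7.32% of genes with a called negative term, and gave no p for Neb. Without mouse tumor 1019, the one with least muscle RNA, limma called 6 members, all but Actn3, Myom1 and Myom2, beside 1.68% of genes with a called negative term.

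Uninjected muscle of tumor-bearing animals was then compared with untreated muscle. In Spalax 0 of 9 members were called by limma, as 0% of genes were, and edgeR also called 0. An unadjusted limma p under 0.05 was found for 2 of 9 members and for 2315 of the 13909 genes tested, shares not far apart. The members with that p were the giants: each UIS library exceeded each control for Ttn and for Neb. Both genes are also on a list that the study chose on these libraries for this contrast, so their direction is not independent evidence.

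Ttn stood at 153411, 102499, 46918 and 236968 in controls 1042, 1075, 2095 and 6038, and at 341988 to 551825 in UIS, without overlap. The log2 fold change was 2.00 ± 0.54 (SE, limma with adjusted p = 0.194, unadjusted p = 0.00422). Neb stood at 154336, 102313, 68181 and 165133 in the controls and at 259461 to 475802 in UIS, a log2 fold change of 1.46 ± 0.43 (SE, limma with adjusted p = 0.208, unadjusted p = 0.00756). Genes without overlap and higher in UIS made up 6.55% of all genes tested. Control 2095 was the lowest for both genes, and without it the fold changes were 1.57 and 1.20. DESeq2 on whole reads called both (adjusted p = 0.00434 and 0.00456), where 2.12% of genes were called higher.

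The other 7 members stayed near the control level by value. Tcap was at 140018 to 247540 in controls and 111164 to 157347 in UIS (log2 fold change -0.43 ± 0.35, SE), and Myoz1 at 31454 to 58949 and 38356 to 57162 (-0.06 ± 0.29). Myom1 (0.05 ± 0.24) and Myom2 (0.30 ± 0.24) also overlapped, as did Actn2 (0.42 ± 0.34), Actn3 (0.49 ± 0.72) and Ldb3 (-0.56 ± 0.48), with adjusted limma p between 0.529 and 0.934. For Ldb3 and Actn3 the lowest UIS library was granuloma 976, with 14164 and 5353, and without it the log2 fold changes were -0.08 and 1.21. The 4 smooth muscle markers, all present, summed to 6183 to 8461 in controls and to 2185 to 3853 in UIS, without overlap, and their part in these values was not tested.

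Exon length moved with this contrast. Over the 11182 of 13909 genes (80.4%) that have a length in the mouse annotation, the median log2 fold change of UIS against control was -0.35 for genes under 2 kb, -0.15 for 2 to 5 kb, 0.10 for 5 to 10 kb, 0.27 for 10 to 15 kb and 0.42 for the 330 genes over 15 kb, of which 81.8% were higher in UIS. Ttn and Neb lie above the upper quartile of 0.66 of the longest genes, and 1 and 4 of these 330 genes had a larger log2 fold change. Tcap and Myoz1, under 2 kb, lie between the quartiles of their length class, -0.68 and -0.05. The part of transcript length in the values of Ttn and Neb was not tested. Lengths are those of the mouse genes, since Spalax gene models were not used here.

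**Figure D4:**
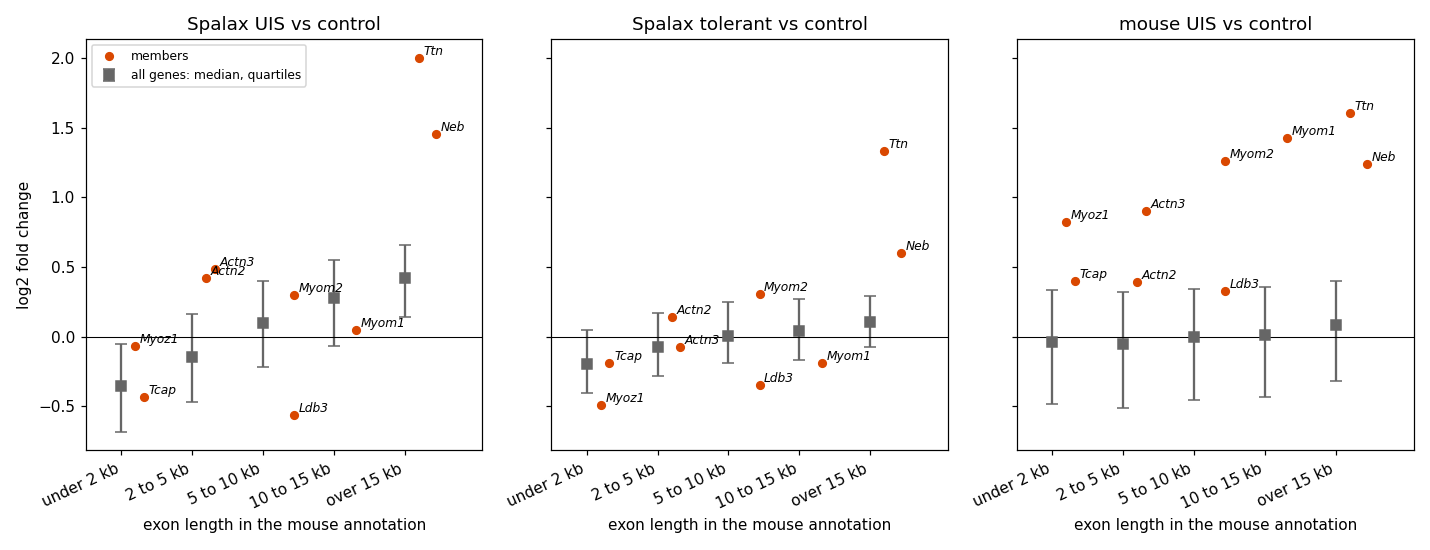
Log2 fold change by exon length of the mouse gene, for Spalax UIS and tolerant against control and for mouse UIS against control. Grey squares with bars are the median and quartiles of all genes of a length class and orange points the 9 genes; in Spalax the medians rise with length, from -0.35 to 0.42 in UIS, and Ttn and Neb lie above them.

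In muscle of the tolerant animals, injected and without a tumor, 0 members were called against control by limma (background 0%), edgeR or DESeq2. An unadjusted limma p under 0.05 was found for 0 members, against 733 of all genes. Of all genes edgeR called 0 and DESeq2 60. Ttn stood at 191871, 329353, 313861 and 356526 in tolerant animals 2251, 2261, 2218 and 2375 (log2 fold change 1.33 ± 0.69, SE, limma with adjusted p = 0.923) and Neb at 106495, 176369, 179039 and 280501 (0.60 ± 0.59, adjusted p = 0.928). Both overlapped with the controls, Ttn through control 6038 alone, which lay above tolerant 2251. Tolerant 2251 was the lowest tolerant library for all 9 members, and its fibroblast markers summed to 186754 against 7162 to 42602 in the other tolerant libraries and its leukocyte markers to 16464 against 814 to 3917. Their part in the low member values was not tested. Here, too, the longest genes had the highest median log2 fold change, 0.11 against -0.20 under 2 kb.

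Between UIS and tolerant muscle 0 members were called by limma, beside 0.00713% of genes, and 0 had an unadjusted p under 0.05, against 718 of all genes, while DESeq2 called 38 genes. The log2 difference was 0.67 ± 0.72 for Ttn (SE, limma with adjusted p = 0.897) and 0.86 ± 0.64 for Neb (adjusted p = 0.880), higher in UIS by value. The comparisons of UIS and of tolerant muscle with the controls share the 4 control libraries.

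In mouse, 0 members were called between UIS and control by limma (background 0%), but all 9 were higher in UIS by value. For 3 of 9 members and 1621 of the 14792 genes tested the unadjusted limma p was under 0.05. Of all genes edgeR called 0 and DESeq2 342, 0 of them members. Ttn stood at 50300, 182587 and 70156 in controls M1, M2 and M5 (log2 fold change 1.61 ± 0.66, SE, limma with adjusted p = 0.452), and overlapped with UIS. Neb (46933, 71727 and 52846 in controls, 1.24 ± 0.56, adjusted p = 0.467), Myom1 (16660, 23301 and 21941, 1.42 ± 0.52, adjusted p = 0.446) and Myom2 (14380, 18692 and 19870, 1.26 ± 0.50, adjusted p = 0.452) did not overlap with UIS, where 9.53% of all genes were higher without overlap. Actn3 (0.91 ± 0.59, SE), Myoz1 (0.82 ± 0.40), Tcap (0.40 ± 0.47), Actn2 (0.39 ± 0.42) and Ldb3 (0.33 ± 0.32) overlapped, with adjusted limma p between 0.476 and 0.723.

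UIS 512 stood apart from UIS 1019 and 1023, and the 1 gene named for it that is no member was picked after its values were seen. It held 472863 of Ttn, 284312 of Neb, 331375 of Actn3, 122257 of Myom1 and 89183 of Myom2, each the highest of the mouse libraries, together with the lowest Actn2 of the 3 UIS libraries (14830). Trim63 (MuRF1), a ubiquitin ligase that binds titin at the M-band and is known from muscle wasting, stood at 236435 there against 5402 and 18019 in the other UIS libraries and 2991 to 5906 in controls. Mouse controls had more fat cell RNA than UIS, with the 6 markers summing to 110877 to 176787 against 7057 to 77952. Its part in the member values was not tested. The medians by exon length differed less in mouse, from -0.04 under 2 kb to 0.09 over 15 kb.

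Ratios between members within a library were taken on the log2 scale after adding 1 to both values. They hardly depend on the scaling of the library at muscle levels, but do so in tumors where a member rests on a few reads. In 5 pairs of groups, 4 such ratios were compared by exact two-sided permutation tests, adjusted over the 20 tests. None passed the adjusted threshold. In groups of 4 the smallest possible p is 0.0286, and in groups of 3 it is 0.1. At these floors no ratio could pass on its own after adjustment over the 20 tests, so this result cannot decide whether a ratio differed. Ttn:Tcap, the spring to its cap, was -0.68 ± 1.21 on the log2 scale in Spalax controls (SD, n = 4), 0.84 ± 0.67 in tolerant muscle and 1.76 ± 0.50 in UIS. UIS did not overlap with control (exact permutation p = 0.0286, adjusted 0.143). In mouse the ratio was 0.50 ± 0.35 in controls (SD, n = 3), 1.71 ± 0.63 in UIS and 4.38 ± 1.27 in IS (exact permutation p = 0.1 for each step, adjusted 0.182).

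Neb:Myoz1 followed the same order in Spalax, with 1.29 ± 0.62 in controls (SD, n = 4), 2.38 ± 0.50 in tolerant muscle and 2.81 ± 0.46 in UIS. Both groups of injected animals were above the controls without overlap (exact permutation p = 0.0286, adjusted 0.143). Between UIS and tolerant muscle neither Ttn:Tcap (difference 0.91, exact permutation p = 0.0857) nor Neb:Myoz1 (0.43, p = 0.286) was separated. In mouse Neb:Myoz1 was 0.83 ± 0.25 in controls (SD, n = 3) and 1.24 ± 0.70 in UIS, with overlap (exact permutation p = 0.6, adjusted 0.838). It was 4.23 ± 1.71 in IS, above UIS without overlap (exact permutation p = 0.1, adjusted 0.182). As in the fold changes, both Ttn:Tcap and Neb:Myoz1 set a long transcript against a short one.

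The ratio of fast to common alpha-actinin, Actn3:Actn2, differed widely between single Spalax. It was -1.41, -1.47 and -1.34 in controls 1042, 1075 and 2095 but 1.00 in 6038, -1.37 to -0.68 in tolerant muscle, and -0.21, -3.63, 0.06 and 0.81 in UIS of 600, 976, 2240 and 2230. Of the Spalax muscle libraries UIS 976 was thus lowest and control 6038 highest, and no group comparison was separated (exact permutation p between 0.857 and 0.971). In mouse muscle the ratio was positive in all 6 libraries, from 1.54 to 4.48, and it was lower in IS (0.17 ± 1.09, SD, n = 3) than in UIS (2.66 ± 1.59) without overlap (exact permutation p = 0.1, adjusted 0.182).

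Myom1:Myom2 varied little among controls. It was -1.06 ± 0.13 in Spalax controls and -1.56 ± 0.28 in tolerant muscle (SD, n = 4), without overlap (exact permutation p = 0.0286, adjusted 0.143), and -1.32 ± 0.60 in UIS. In mouse it was 0.22 ± 0.09 in controls and 0.39 ± 0.06 in UIS (SD, n = 3). In the 4 Spalax tumors it was positive, from 1.16 to 4.38, so that Myom1 had more reads than Myom2 there, whereas it had fewer in all 12 Spalax muscle libraries (reads, not per length).

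**Figure D5:**
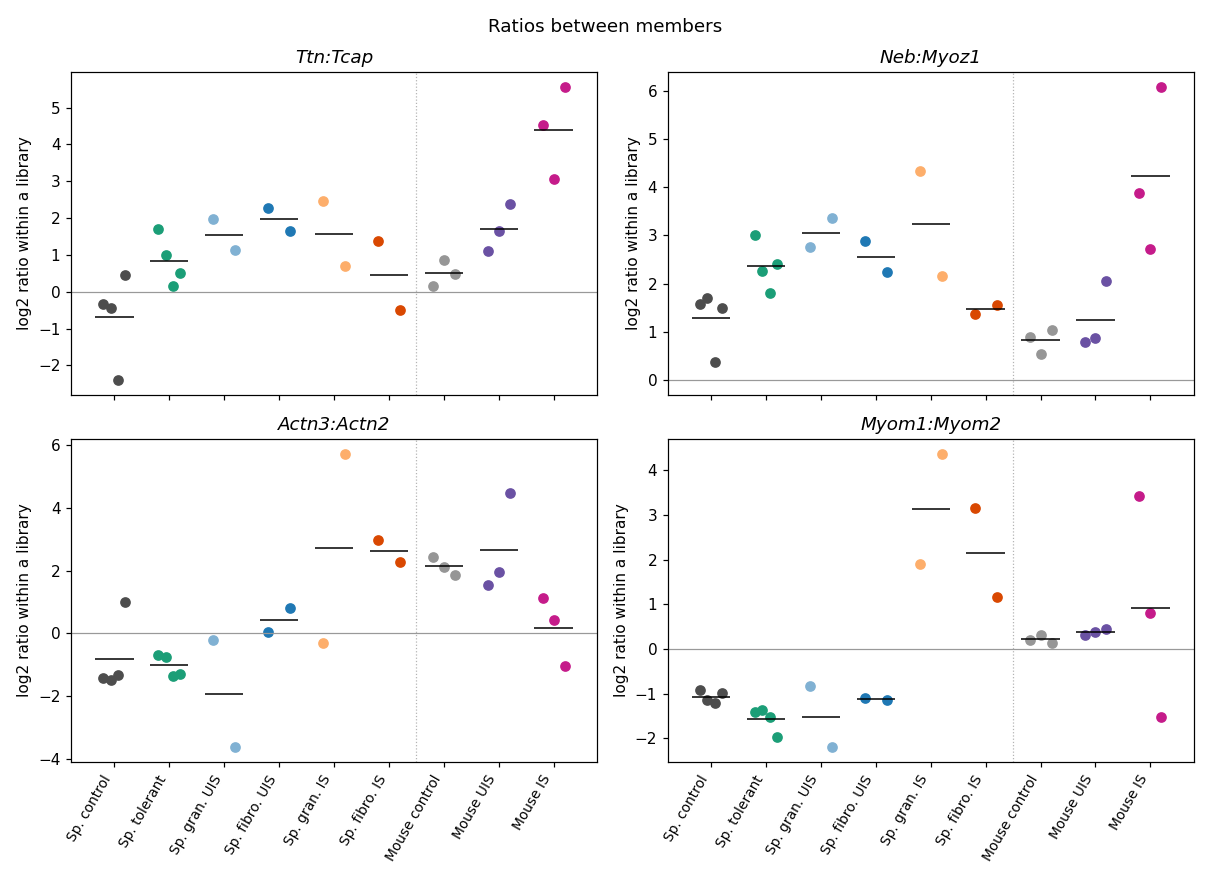
Log2 ratios between members within each library, by group; points are libraries, black lines are group means and the grey line is 0. Ttn:Tcap and Neb:Myoz1 are higher in Spalax UIS than in all controls, and Actn3:Actn2 ranges from -3.63 (UIS 976) to 5.73 (granuloma 976) in Spalax.

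UIS 976 had an unusual set of Z-disc and thin filament genes beside its low Actn3 and Ldb3. Csrp3 (muscle LIM protein) stood at 138210 there against 2438 to 18066 in the 11 other Spalax muscle libraries, Ankrd1 (a titin-binding ankyrin repeat protein induced by stress) at 51038 against 340 to 5136, and Xirp1 at 60357 against 3827 to 9897. Myoz2, the slow-fiber relative of Myoz1, was at 26099 against 1658 to 6256, while Myoz3 was at 80.1 against 1256 to 3352 and the fast-fiber parvalbumin Pvalb at 86.0 against 1467 to 28558. Acta1, the skeletal actin, was at 82517, below the 213149 to 782723 of the others. These genes were picked after their values were seen, and they describe 1 library.

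Partner genes of the members were taken as 4 lists of 48 genes, 47 of them tested in Spalax, where Xirp2 was not tested. In IS against UIS the 3 muscle lists fell with the members. Of 15 Z-disc partners in Spalax 14 were called lower in granuloma and 13 in fibrosarcoma, and 13 of 16 in mouse, with none higher. Of 14 titin and M-band partners 12, 14 and 10 were called lower and none higher. Of 10 nebulin relatives and thin filament genes 8 were called lower in each comparison and 1 higher. Of all genes 12.6%, 19.0% and 22.3% were called lower in granuloma, Spalax fibrosarcoma and mouse. The medians of the 3 lists lay between -7.77 and -9.32 in granuloma, -8.34 and -10.05 in fibrosarcoma and -5.96 and -6.49 in mouse.

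Myot (myotilin, an actinin-binding Z-disc protein) had log2 fold changes of -10.13, -15.15 and -9.14 in granuloma, Spalax fibrosarcoma and mouse. Those of Nrap, a nebulin relative of growing myofibrils that is on a gene list the study chose on these libraries, were -11.04, -12.87 and -7.90. Lmod2 (leiomodin 2, which elongates thin filaments) stood at -11.32 and -13.62 in Spalax. All of these were called lower.

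Among the titin partners Mybpc1, a myosin-binding protein C, had log2 fold changes of -10.81 and -13.81 in Spalax and Hspb7, a small heat shock protein, of -13.52 in fibrosarcoma. In mouse Mybpc2 stood at -10.59 and Trim63 at -9.15. Of the Z-disc and thin filament genes Csrp3 stood at -11.51 in granuloma, Xirp1 at -11.38 in fibrosarcoma, and Myoz3 and Tmod4 at -7.81 and -7.84 in mouse. Adjusted limma p of the genes named in both paragraphs lay between 0.000652 and 0.0296.

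Relatives used outside muscle went the other way in part. The member of the nebulin family that rose is Lasp1, a focal adhesion protein of many cell types, by 3.09 ± 0.47, 2.53 ± 0.35 and 1.83 ± 0.42 on the log2 scale (SE, limma with adjusted p = 0.0141, 0.0104 and 0.0146). Of 8 non-muscle relatives 3, 3 and 5 were called higher and 0, 1 and 1 lower. The backgrounds were 11.7%, 17.4% and 22.8% of genes called higher and 12.6%, 19.0% and 22.3% called lower. Actn1, the alpha-actinin of stress fibers, rose by 3.11 ± 0.41, 2.28 ± 0.51 and 3.29 ± 0.36 (SE, limma with adjusted p = 0.0108, 0.0308 and 0.00194). Flna (filamin A) rose by 3.33 and 3.00 in Spalax (limma with adjusted p = 0.00894 and 0.00942) and Zyx (zyxin) by 2.79 in mouse (0.00329). Pdlim7, which is also used in muscle, had log2 fold changes of -2.70 in Spalax fibrosarcoma and -1.40 in mouse (limma with adjusted p = 0.00703 and 0.0238).

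In the comparisons among muscle libraries and between the tumor types 0 of the list genes were called by limma. In Spalax UIS against control the smallest unadjusted p of the partner genes belonged to Myom3, the third myomesin (log2 fold change 1.31 ± 0.36, SE, limma with adjusted p = 0.197), followed among the partner genes named here by Nrap (1.36 ± 0.47, adjusted p = 0.232), Tmod1 (0.61 ± 0.22, adjusted p = 0.238), Flna (-0.71 ± 0.26, adjusted p = 0.246), Flnc (0.84 ± 0.33, adjusted p = 0.264), Ankrd23 (-1.06 ± 0.43, adjusted p = 0.269), Csrp3 (2.08 ± 0.86, adjusted p = 0.273, or 1.13 ± 0.44 without UIS 976) and Palld (0.50 ± 0.22, adjusted p = 0.299). In tolerant muscle against control Myom3 (0.94 ± 0.36, SE, limma with adjusted p = 0.912) and Csrp3 (1.12 ± 0.44, adjusted p = 0.915) had the lowest. In mouse UIS against control they were Pdlim3 (1.14 ± 0.31, SE, limma with adjusted p = 0.402), an actinin-binding LIM protein, and Hspb7 (1.06 ± 0.30, adjusted p = 0.409). In the interaction of Spalax fibrosarcoma with mouse 1 list gene was called, Ankrd1 (-8.75 ± 1.81, SE, limma with adjusted p = 0.0380), which stood at 1222, 358 and 4441 in the mouse tumors 1019, 1023 and 512, against 704, 338 and 940 in UIS, and at 42.4 and 1.20 in Spalax fibrosarcoma.

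The members did not vary as 1 block in Spalax muscle. Over the 12 muscle libraries, Pearson correlations of log2(value + 1) between a member and the mean of the other 8 ranged from 0.360 (Ldb3) to 0.825 (Myom1), and between pairs of members from -0.281 (Neb with Ldb3) to 0.856 (Ttn with Neb). Myoz1 and Tcap, both short, correlated at 0.816. Over the 6 mouse muscle libraries the members correlated with the mean of the others at 0.746 to 0.976, except Actn2 at 0.144, and Myom1 with Myom2 at 0.998. The genes with the pattern most like the member mean were Cse1l, Phkb, Faf1, Kif1c and Strbp in Spalax (r = 0.922 to 0.930, 10739 genes ranked) and Lrrfip2, Cacng1, Ckm, Zfp960 and Asb16 in mouse (r = 0.994 to 0.999, 11927 genes ranked). These are descriptions over libraries that share the authors' scaling and include several groups, with no test.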

How the data were processed

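RNA-Seq of neck muscle and tumor gave 16 Spalax and 9 mouse libraries (stranded TruSeq kit, single-end reads). Per the labels and the study's methods, the authors trimmed the reads, aligned them with TopHat (1.4.1 in the submitters' processing notes, TopHat2 in the methods) to a Spalax genome or to mouse GRCm38, counted reads per gene with HTSeq and divided the counts by DESeq size factors. The deposited values are therefore a signal per gene and not raw counts, in 1 table per species, so that levels were tested within a species. Steps between values gave back whole reads for 100% of values above 0 in every library (within 0.05 reads plus 1e-06 of the value). In the Spalax table a comma in a gene name was read as a lower-case t.

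Tests used limma 3.58.1 (R 4.3.3) on log2(value + 1), with a mean-variance trend, over all genes that reached 10 in a number of libraries no lower than the size of the smaller group, and Benjamini-Hochberg adjustment at 0.05. A fold change on this scale understates the change of low genes. Ratios were tested by exact permutation (scipy 1.17.1). The alternatives were edgeR 4.0.16 and DESeq2 1.42.0 on the recovered reads, a pseudocount of 0.1, no filter and scaling by total reads. Also run were a replicate block, leaving out each library and 1 model over all libraries of the species. That model was not run for the interaction of the species. The fits were tested on simulated data. Intervals cover counting error only, and p-values measure the spread among these animals.

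The animal number in the labels pairs IS and UIS. Deviations of the same animal from the group means correlated at 0.00925 in granuloma, -0.00186 in fibrosarcoma and 0.125, 0.0469 and 0.178 in mouse. The members and lists were chosen with earlier results of these data known. Named were all members; per partner list, in IS against UIS, the 2 largest called rises and falls; elsewhere called genes or the 2 with the smallest unadjusted p; and the 5 genes most correlated with the member mean. For 1 partner gene that this rule names, values are not reported here. The strand setting of the counting and the version of the mouse gene models are not given in the sources used here.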

Additional observations from a re-analysis of the deposited data

Results flagged for a closer look

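In groups of 4 Spalax libraries, 39 sets of values were checked for 1 library far from the other 3 (the gap to the nearest library over the whole range, against Dixon's 95% limit). Chance alone gives such a library in about 1 in 20 groups. Control 6038 had a log2 Actn3:Actn2 ratio of 1.00 against -1.47 to -1.34 in the other controls. Control 2095 had a log2 Neb:Myoz1 ratio of 0.37 against 1.49 to 1.70. Myom1 was at 11973 in UIS 976 against 20031 to 20698 in the other UIS libraries.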

How the results depend on the processing

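In IS against UIS the members kept a negative fold change under every alternative run. Leaving out 1 library gave 0 called members in granuloma throughout and 0 to 9 in Spalax fibrosarcoma, where 0 followed from leaving out UIS 2240 or 2230. With the animal as a replicate block 9, 9 and 8 members were called in granuloma, Spalax fibrosarcoma and mouse, Actn2 being lost in mouse, and the pairing changed no other member's call. edgeR called 6 members in mouse, without Actn2, Myom2 and Ttn. Scaling by total reads moved the median log2 fold change of all genes to 0.72, 0.83 and 1.16 in these comparisons.

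DESeq2 called 2 members and 2 partner genes in Spalax UIS against control, 3 partner genes in mouse UIS against control, 2 members between the tumor types, 1 member and 1 partner gene in the interaction of the tumor types, and 4 members and 17 partner genes in the interaction of the species, where limma called 0 members throughout and 1 partner gene in the last. Beside these counts, DESeq2 called 2.12% of all genes higher in Spalax UIS and 0.783% lower in fibrosarcoma than in granuloma. Called negative terms made up 0.501% and 7.32% of genes in the interactions of the tumor types and of the species. Leaving out 1 library gave 0 to 2 called members between the UIS groups and 0 to 6 in the interaction of the species. In Spalax UIS against control the fold change of Myom1 ranged from -0.0403 to 0.241 and that of Myoz1 from -0.261 to 0.0409 with 1 library left out, so neither has a stable direction. The cause of these differences was not tested. Tumor values of a few reads limit the precision of the largest fold changes.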
